A study of Mus musculus with 8 samples.

Results

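The genes described here encode the nuclear subunits of the oxidative phosphorylation machinery, grouped by complex, in cultured mouse fat cells exposed to asbestos. They were chosen by name: every gene on the array called Ndufa, Ndufb, Ndufc, Ndufs or Ndufv with a number, Sdha to Sdhd, Uqcr, Cox4 to Cox8 or Atp5 with any ending, plus Cycs and Cyc1. Of 34839 genes on the array 87 matched, and 85 of these were among the 22918 genes bright enough to be tested. Set against what each gene encodes, the names held 75 subunits made in most tissues (35 of complex I, 4 of complex II, 9 of complex III, 11 of complex IV, 15 of complex V and cytochrome c), 8 tissue-restricted or induced isoforms, all of complex IV, and 4 genes that encode no subunit. All 75 subunits were well above background on all 8 arrays. The 2 genes that were not tested, the testis isoforms Cox7b2 and Cox8c, were above background on no array.

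Oxidative phosphorylation takes place in the inner mitochondrial membrane. Complex I (NADH dehydrogenase) and complex II (succinate dehydrogenase) pass electrons to ubiquinone, complex III passes them to cytochrome c, complex IV (cytochrome c oxidase) passes them to oxygen, and complex V (ATP synthase) uses the resulting proton gradient to make ATP. Most subunits are encoded in the nucleus and a small set in mitochondrial DNA, and the nuclear genes are known to be under the transcription factors NRF1, GABPA, YY1 and ERR alpha with the coactivator PGC-1 alpha. In adipocytes mitochondria multiply as the cells mature and supply the ATP and citrate that lipid synthesis draws on.

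Mature adipocytes of 3T3-L1, a mouse embryonic fibroblast line that turns into fat cells in culture, received chrysotile, crocidolite, amosite or physiological saline for 72 h. Chrysotile is a serpentine asbestos, and crocidolite and amosite are iron-rich amphiboles. All fibres have a labelled dose of 10 mg/cm2, a high value for fibres whose unit may be in error and could not be checked here, and saline carried no fibre. Each of the 4 groups had 2 arrays, numbered replicate 1 and replicate 2. Nothing in the labels tells whether the pairs came from separate cultures, so the p-values below reflect the spread among these particular arrays, and that spread may be technical. The 8 arrays lay on 1 slide, where the first position number was the replicate and the second the group, so neither can be told apart from position.

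Levels are log2 of the processed intensity minus the 75th percentile of that intensity on the same array, so a level of 0 is that percentile. The percentile ran from 340.1 to 453.4 intensity units, and 56.2% to 62.8% of probes were well above background. Precision is limited by having 2 arrays in each group. The 18 adipocyte markers, adiponectin and Fabp4 among them, were above background on every array. Of 14 macrophage markers 7 passed the filter on dim probes. Itgam (5.74 to 6.04), Csf1r, Cd68, Cd14, Mpeg1 and Aif1 were above background on all 8 arrays, and Lyz2, Cd163, Mrc1 and Cx3cr1 on none. Of 14 muscle markers 7 passed. Mb (1.60 to 3.32), Des, Tnni2 and Myh7 were above background on all 8 arrays, and Myh2, Myh4, Myod1 and Myog on none. In RNA from whole cultures, fewer cells of a type and less RNA per cell cannot be told apart.

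The sequences before the start sites are given for 3 of the subunits, chosen because they hold the most motif matches in complexes I, II and IV. Whether such matches bear on the levels of the subunits was not tested. Of the 75 subunits 63 had a promoter window (250 bases before to 50 after the annotated start) in RefSeq on build GRCm38.p6. The letters searched, on both strands, were GCGCA, any base and GCGC in a row for NRF1, CCGGAAG for GABPA and AAGATGGCG for YY1, and a place that matched on both strands was counted once. Matches are in capitals and the windows run 5′ to 3′ on the strand of the gene. Ndufb4 lies at chr16:37654319-37654618, Sdha at chr13:74350191-74350490 and Cox6a1 at chr5:115348909-115349208, all on the minus strand.
Ndufb4: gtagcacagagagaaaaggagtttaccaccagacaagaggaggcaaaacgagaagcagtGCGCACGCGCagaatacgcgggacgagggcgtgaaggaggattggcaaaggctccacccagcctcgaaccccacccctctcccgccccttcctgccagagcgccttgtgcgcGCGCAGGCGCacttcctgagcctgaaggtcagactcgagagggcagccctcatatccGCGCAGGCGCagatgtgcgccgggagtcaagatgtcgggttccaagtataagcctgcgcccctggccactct
Sdha: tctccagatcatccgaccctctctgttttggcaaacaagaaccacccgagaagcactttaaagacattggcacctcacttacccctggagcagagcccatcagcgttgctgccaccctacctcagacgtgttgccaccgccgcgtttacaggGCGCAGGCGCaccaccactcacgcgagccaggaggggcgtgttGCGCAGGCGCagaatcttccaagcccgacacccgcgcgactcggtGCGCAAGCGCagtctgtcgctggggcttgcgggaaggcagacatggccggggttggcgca
Cox6a1: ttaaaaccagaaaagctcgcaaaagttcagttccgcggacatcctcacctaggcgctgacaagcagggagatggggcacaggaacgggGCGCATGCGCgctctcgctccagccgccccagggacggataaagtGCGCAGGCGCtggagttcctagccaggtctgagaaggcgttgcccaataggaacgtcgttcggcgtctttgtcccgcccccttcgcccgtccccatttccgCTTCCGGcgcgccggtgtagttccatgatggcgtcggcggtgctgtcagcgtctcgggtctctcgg
The window of Ndufb4, an accessory subunit of complex I, holds 3 NRF1 matches, which begin 191, 79 and 22 bases before the start. Sdha, the flavoprotein of complex II, also has 3, beginning 98, 55 and 10 bases before the start. Cox6a1, the ubiquitous form of subunit VIa of complex IV, has 2 NRF1 matches and 1 GABPA match, in the reverse orientation, 16 bases before the start. NRF1 letters were found for 17 of the 63 subunits (27.0%), against 5.19% of all 27025 genes with a window. GABPA letters were found for 16 (25.4%), against 9.93% of all genes, and YY1 letters for 7 (11.1%), against 1.64%. A gene with several windows counted once, and of all 32851 windows 4.6%, 8.86% and 1.4% held the letters of NRF1, GABPA and YY1. All genes with a window were counted, whether or not they were bright enough to be tested on the arrays. A match is a description of letters and not a binding site.

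The transcripts of all 5 complexes moved together over the arrays. With each gene centred on its mean over the 8 arrays, the median of the 75 subunits was 0.07 and -0.17 for chrysotile replicates 1 and 2, -0.15 and -0.08 for crocidolite, 0.04 and 0.07 for amosite, and -0.10 and 0.30 for saline. The second saline array was the highest of the 8 for 69 of the 75 subunits, and the second chrysotile array was the lowest for 36. The first saline array was the lowest for 22 subunits and the first crocidolite array for 14. How many of all genes had their highest or lowest level on each array was not counted, here or below. Whether these counts exceed the share of all genes therefore cannot be told. The 2 saline arrays thus held the highest median and one of the 3 lowest. On any 1 array the medians of the 5 complexes lay within 0.03 to 0.12 of each other, while the median of all subunits differed by 0.46 between arrays. Complex II on the first saline array stood somewhat above the other complexes there, at 0.01, against -0.11 to -0.10 for complexes I, III, IV and V.

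**Figure D1:**
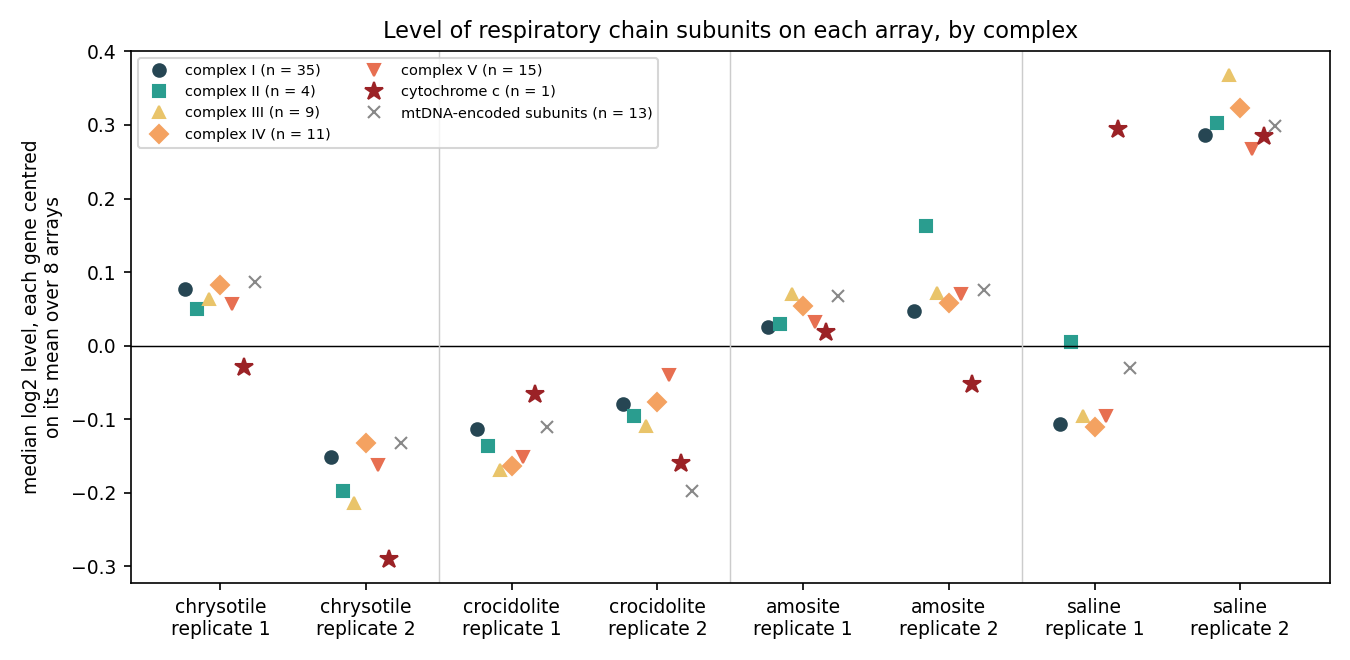
Median log2 level of the subunits of each complex on each of the 8 arrays, each gene centred on its mean over all arrays (vertical axis, log2 units), with cytochrome c and the 13 subunits encoded in mitochondrial DNA beside them. The complexes lie close together on each array, the second saline array is the highest for every set but cytochrome c, and crocidolite lies under amosite in both replicates.

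No subunit passed the test in any comparison of groups. In the limma fit with Benjamini-Hochberg adjustment 0 of 85 members were past an adjusted p of 0.05 with chrysotile, crocidolite or amosite against saline or with any pair of fibres, nor were any of the 22918 genes (0%). The smallest adjusted p of a member was 0.898 with chrysotile, 0.627 with crocidolite and 1 with amosite. At an unadjusted p under 0.05, 5 subunits were lower with chrysotile (2.64% of all genes), 6 with crocidolite (4.42%) and 1 with amosite (1.57%). None was higher with chrysotile (2.83% of all genes), crocidolite (2.87%) or amosite (1.09%), a count of 0 each. With the replicate number as a block the counts lower were 5, 6 and 2 with chrysotile, crocidolite and amosite, against 4.97%, 7.74% and 2.78% of all genes, so the counts with crocidolite and amosite are about the share of all genes. What follows is therefore a description of levels, with differences as fitted log2 values ± SE (2 arrays in each group, with 1 error estimate from all 8). The 3 fibres share the same 2 saline arrays, so their differences from saline are not independent of each other.

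With chrysotile the median difference from saline was -0.16 over the 75 subunits, against -0.01 over all genes tested. It was 0.16 within replicate 1, where 16 subunits were lower (45.2% of all genes), and -0.46 within replicate 2, where all 75 were lower (57.1% of all genes). Both chrysotile arrays were under both saline arrays for 16 subunits, which is read against 15.3% of all genes. With crocidolite the median was -0.21, against -0.02 over all genes, and it was -0.04 within replicate 1 (45 lower, against 50.9% of all genes) and -0.38 within replicate 2 (75 lower, against 56.1%). Both crocidolite arrays were under both saline arrays for 34 subunits, against 19.9% of all genes. With amosite the median was -0.06, against -0.02 over all genes, with 0.14 within replicate 1 (13 lower, against 49.1% of all genes) and -0.24 within replicate 2 (74 lower, against 59.8%). Both amosite arrays were under both saline arrays for 9 subunits, against 12.9% of all genes. With the percentile, crocidolite alone of the fibres had a median under 0 in both replicates. With quantile normalization in place of the percentile the chrysotile medians were -0.002 within replicate 1 and -0.45 within replicate 2. Within replicate 1 38 subunits were lower, a count for which the share of all genes was not taken. Lower without overlap were 38 subunits (15.9% of all genes). The value above 0 in replicate 1 thus depends on the normalization. The crocidolite medians were then -0.14 within replicate 1 and -0.37 within replicate 2, with 46 subunits lower without overlap (17.9% of all genes). That crocidolite alone was under 0 in both replicates thus depends on the normalization as well. Leaving out the second saline array moved the medians to 0.06, -0.03 and 0.14 for chrysotile, crocidolite and amosite. Leaving out the first moved them to -0.36, -0.40 and -0.25.

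**Figure D2:**
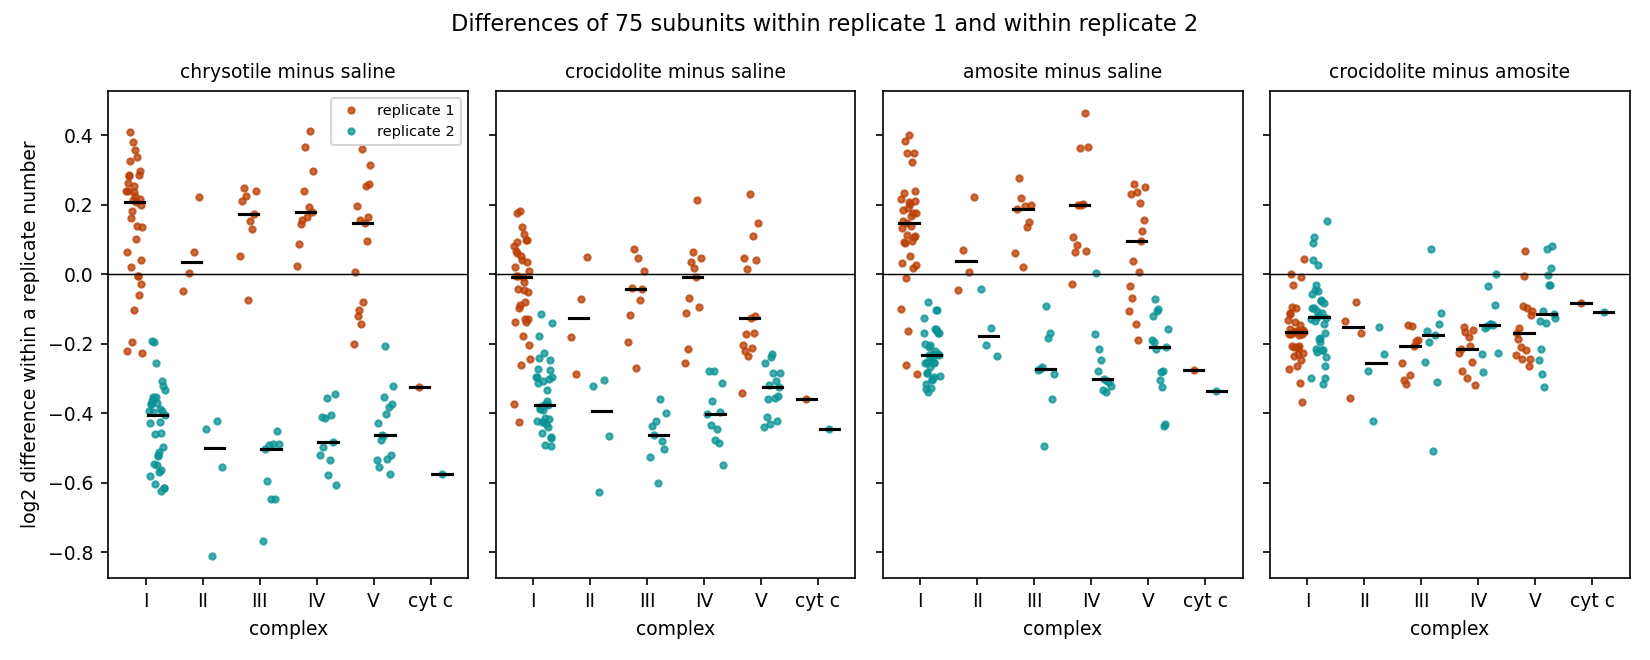
Log2 difference of each of the 75 subunits within replicate 1 (orange) and within replicate 2 (teal), by complex, for the 3 fibres against saline and for crocidolite against amosite (black bars are medians). Chrysotile and amosite have medians above 0 in replicate 1 and under 0 in replicate 2 for complexes I to V, and the crocidolite to amosite differences lie mostly under 0 in both.

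Crocidolite against amosite, 2 amphiboles, gave nearly the same value in both replicates. The median of the 75 subunits was -0.16 (-0.01 over all genes), with -0.17 within replicate 1, where 73 were lower (52.1% of all genes), and -0.14 within replicate 2, where 66 were lower (48.9%). Both crocidolite arrays were under both amosite arrays for 61 subunits, against 20.3% of all genes. The complex medians were -0.15 for I, -0.20 for II, -0.23 for III, -0.18 for IV and -0.12 for V. No saline or chrysotile array enters these values, so only leaving out a crocidolite or amosite array puts them to the test. With each of the 8 arrays left out in turn the median over the subunits stayed between -0.20 and -0.14. No member passed the test (smallest adjusted p 0.968 in limma), and at an unadjusted p under 0.05 1 was lower (2.66% of all genes) and 0 were higher (2.47%). With the replicate number as a block 0 were lower (4.78% of all genes).

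Uqcrc1, a core protein of complex III, had the lowest p of the members in this comparison. Its level was 4.77 and 4.75 with crocidolite and 5.06 and 5.26 with amosite, a difference of -0.40 ± 0.16 (unadjusted p = 0.0482 in limma, and 0.0531 with the replicate block). The arrays of the 2 fibres did not overlap. Its probe lies at chr9:108851008-108851487 (mm9). Sdhb, the iron-sulfur subunit of complex II, was at 6.46 and 6.50 with crocidolite and at 6.81 and 6.92 with amosite (-0.39 ± 0.19). Ndufs3, a core subunit of complex I in the arm that takes up NADH, was at 6.95 and 7.0 with crocidolite and at 7.26 and 7.32 with amosite (-0.31 ± 0.15). Ndufs7 (-0.32 ± 0.18) and Ndufa10 (-0.29 ± 0.13) were also apart on all 4 arrays. Against the trend, the brightest probe of Ndufv3 was higher with crocidolite in both replicates (8.16 and 8.24 with crocidolite, 8.11 and 8.09 with amosite), the 1 subunit whose arrays lay apart in that direction (17.5% of all genes). The other subunits with a mean difference above 0 were Ndufa3, Atp5g2 and Atp5g3. The second probe of Ndufv3 went the other way, at -0.17 from saline with crocidolite and -0.08 with amosite. So did its dimmest probe, at -0.11 and 0.00, so the exception rests on the brightest probe.

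**Figure D3:**
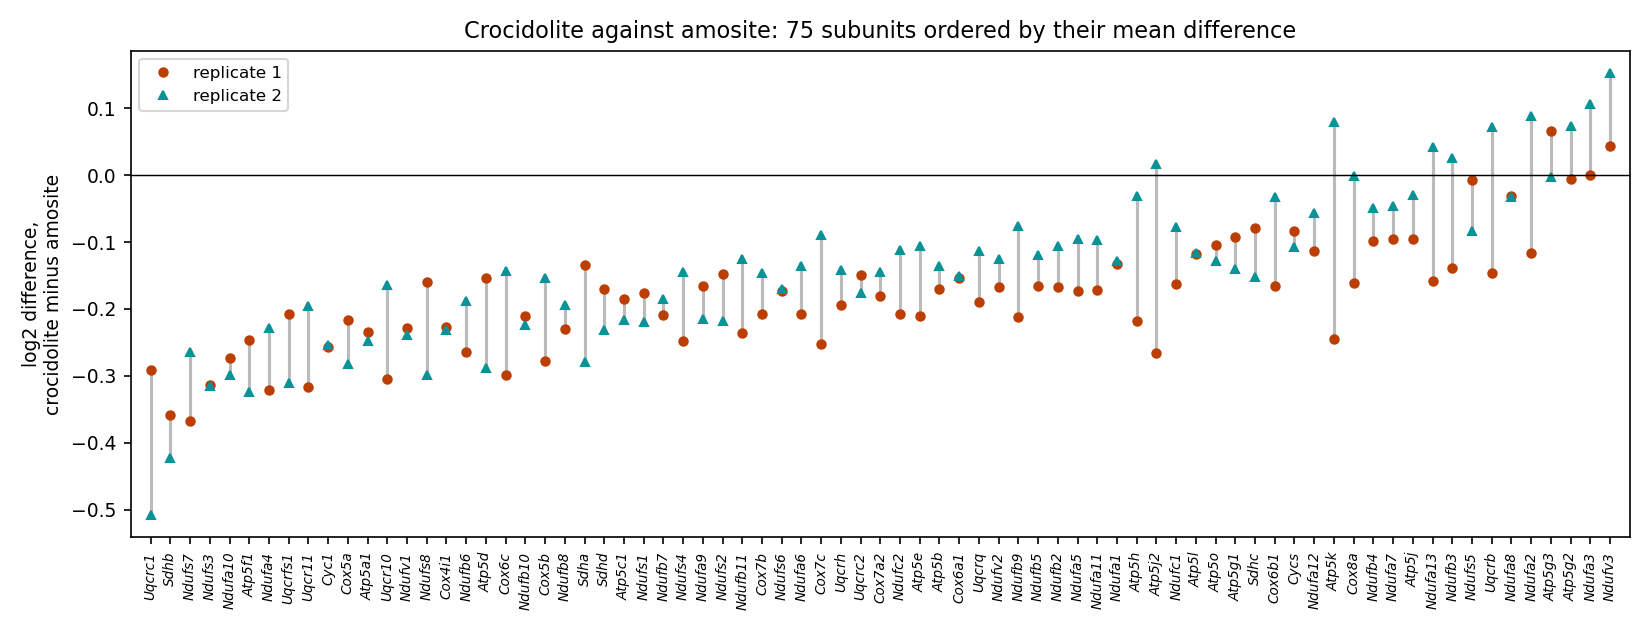
Log2 difference between crocidolite and amosite for each of the 75 subunits within replicate 1 (orange circles) and within replicate 2 (teal triangles), ordered by the mean of both. Replicate 1 is under 0 for 73 subunits and replicate 2 for 66, with Uqcrc1 and Sdhb at the low end and Ndufv3 at the high end.

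Chrysotile against amosite had a median of -0.11 with 0.02 within replicate 1 and -0.23 within replicate 2, 25 subunits without overlap in the lower direction (15.6% of all genes) and 1 in the higher (17.8%). That comparison depends on the normalization: with quantile normalization in place of the percentile its median was -0.21, with -0.08 within replicate 1 and -0.34 within replicate 2, and 68 subunits were lower without overlap (18.7% of all genes). Chrysotile against crocidolite had a median of 0.06 with 0.20 within replicate 1 and -0.09 within replicate 2, and 0 subunits without overlap in the lower direction (10.5% of all genes) and 3 in the higher (12.8%). At an unadjusted p under 0.05 no subunit was lower (1.7% of all genes) or higher (2.63%) for chrysotile against amosite, nor lower (0.641%) or higher (2.12%) for chrysotile against crocidolite, a count of 0 in limma each. Whether the replicates of these comparisons differ from those of crocidolite against amosite was not tested.

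Complex I contributed 35 subunits. Its median was -0.13 with chrysotile, -0.19 with crocidolite and -0.06 with amosite, relative to saline. The 7 core subunits, those with counterparts in the bacterial enzyme, had medians of -0.29, -0.26 and -0.03, and the 28 accessory subunits -0.08, -0.17 and -0.06, in the same order of fibres. No test was run of the difference between core and accessory. Ndufv1, which binds the NADH-oxidising flavin, was at 7.14 and 7.0 with chrysotile, 6.97 and 7.14 with crocidolite, 7.20 and 7.38 with amosite and 7.17 and 7.61 with saline. Ndufs1, the largest iron-sulfur protein of the complex, was at 6.33 and 6.04, 6.25 and 6.22, and 6.43 and 6.44 with the same 3 fibres, against 6.33 and 6.66 with saline. In both, the first saline array lay among the fibre arrays and the second above them.

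Ndufa10, an accessory subunit, had the lowest p of complex I with chrysotile. It was at 4.91 and 4.68 with chrysotile, 4.76 and 4.84 with crocidolite, 5.04 and 5.14 with amosite, and 5.14 and 5.26 with saline. The differences were -0.40 ± 0.13 with chrysotile (unadjusted p = 0.0202 in limma), -0.40 ± 0.13 with crocidolite and -0.11 ± 0.13 with amosite. The chrysotile and crocidolite arrays lay under both saline arrays, and 1 amosite array reached the lower of them. At the other end of the complex, Ndufa3 differed by 0.04 with chrysotile and Ndufs4 by 0.10 with amosite, each less than its SE.

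In complex II, whose 4 subunits also form an enzyme of the citric acid cycle, the medians were -0.21 with chrysotile, -0.23 with crocidolite and -0.06 with amosite. Sdhb was at 6.75 and 6.31 with chrysotile, 6.46 and 6.50 with crocidolite, 6.81 and 6.92 with amosite and 6.74 and 7.12 with saline. Its difference was -0.46 ± 0.19 with crocidolite, the largest of the 75 subunits in that comparison, and -0.40 ± 0.19 with chrysotile, nearly all of it from replicate 2 (0.00 within replicate 1, -0.81 within replicate 2). The second probe of Sdhb gave -0.40 with chrysotile and -0.42 with crocidolite. Sdha, which oxidises succinate, was at 5.87 and 5.71 with chrysotile, 5.74 and 5.83 with crocidolite, 5.88 and 6.11 with amosite and 5.92 and 6.16 with saline. The membrane anchors differed by -0.19 ± 0.14 (Sdhc) and -0.21 ± 0.19 (Sdhd) with crocidolite. For all 4 genes the second saline array was the highest and the second chrysotile array the lowest of the 8.

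In complex III the medians were -0.17, -0.27 and -0.04 with chrysotile, crocidolite and amosite, and the second saline array was the highest for all 9 subunits. Uqcrc1 was at 4.96 and 4.71 with chrysotile, 4.77 and 4.75 with crocidolite, 5.06 and 5.26 with amosite and 5.04 and 5.35 with saline, so both crocidolite arrays lay under both saline arrays (-0.44 ± 0.16, unadjusted p = 0.0356 in limma). Cyc1, the cytochrome c1 that hands electrons to cytochrome c, was at 6.63 and 6.17 with chrysotile, 6.38 and 6.41 with crocidolite, 6.64 and 6.66 with amosite and 6.58 and 6.94 with saline. The Rieske protein Uqcrfs1 was at 5.97 and 5.66, 5.76 and 5.82, and 5.97 and 6.13 with the same fibres in that order, and at 5.84 and 6.30 with saline. For Cyc1 and Uqcrfs1 the crocidolite arrays were under both saline arrays and the other fibres overlapped saline. Uqcrc2, the second core protein, had the smallest difference of the complex with crocidolite (-0.16 ± 0.16).

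Complex IV had medians of -0.13, -0.22 and -0.05 over its 11 ubiquitous subunits, Ndufa4 included, with chrysotile, crocidolite and amosite. Cox4i1, the ubiquitous form of the subunit through which ATP inhibits the enzyme, had the largest difference among these 11 with chrysotile and crocidolite. It was at 8.25 and 7.89 with chrysotile, 7.97 and 8.01 with crocidolite, 8.20 and 8.24 with amosite and 8.23 and 8.41 with saline (-0.33 ± 0.15 with crocidolite). Cox5a was at 7.36 and 7.12, 7.17 and 7.25, and 7.38 and 7.53 with the fibres in the same order, and at 7.28 and 7.53 with saline. Only the crocidolite arrays of both genes lay under both saline arrays. Cox5b, Cox6a1, Cox7a2 and Cox8a overlapped saline with every fibre.

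Among the tissue isoforms of complex IV, Cox8b and Cox7a1, the forms found in heart, skeletal muscle and brown fat, had their widest gap between the 2 saline arrays. Cox8b was at 6.76 and 6.52 with chrysotile, 6.34 and 6.85 with crocidolite, 6.98 and 7.14 with amosite and 6.65 and 7.41 with saline. Cox7a1 was at 6.52 and 6.55, 6.16 and 6.63, and 6.53 and 6.79 with the fibres in that order, and at 6.11 and 7.03 with saline. The saline arrays enclosed the fibre arrays for Cox7a1. Ucp1, the uncoupling protein that defines thermogenic fat cells, was above background on no array, as were Elovl3 and Tmem26. Cidea (1.52 to 2.94), Ppargc1a, Otop1, Zic1, Cpt1b, Tnfrsf9 and Tbx1 were above background on all 8 arrays, Dio2 on 7 and Prdm16 on 1. The 10 measured thermogenic markers, Cox8b and Cox7a1 among them, had centred medians of -0.10 and -0.21 with chrysotile, -0.32 and 0.02 with crocidolite, 0.03 and 0.15 with amosite and -0.01 and 0.34 with saline, and their part in these levels was not tested. Cox4i2, known from lung, differed by -0.15 ± 0.20 with chrysotile, -0.23 ± 0.20 with crocidolite and -0.05 ± 0.20 with amosite, and overlapped saline with each. Ndufa4l2, the hypoxia-induced paralog of Ndufa4, overlapped saline with every fibre.

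Cox6b2, the testis form of subunit VIb, had the lowest p of all members with chrysotile. Its level was -0.29 and -1.06 with chrysotile, 0.17 and -0.04 with crocidolite, -0.16 and -0.01 with amosite and 0.26 and 0.18 with saline. Both chrysotile arrays were the lowest of the 8, with a difference of -0.89 ± 0.25 (unadjusted p = 0.0116, adjusted p = 0.898 in limma). The ubiquitous Cox6b1 did not follow it, at 4.57 and 4.39 with chrysotile and 4.33 and 4.75 with saline.

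Cox6a2, the heart and skeletal muscle form of subunit VIa, was the 1 member that passed a test, and it was the test of replicate 2 against replicate 1. It was at 1.21 in replicate 2 and 1.72 in replicate 1 with chrysotile, at 1.27 and 1.70 with crocidolite, at 0.92 and 1.57 with amosite and at 0.76 and 1.38 with saline. It fell by 0.55 ± 0.068 in replicate 2 in a fit with group as a term (adjusted p = 0.0342 in limma), lower in 4 of 4 groups, and 3.06% of all genes were called in that comparison. With any 1 array left out the adjusted p lay between 0.0834 and 0.166. Within each replicate its level with the fibres was above that with saline, by 0.35 (chrysotile), 0.32 (crocidolite) and 0.19 (amosite) in replicate 1 and by 0.45, 0.51 and 0.16 in replicate 2. None of these passed limma with the replicate number as a term (adjusted p = 0.435, 0.289 and 1). Its ubiquitous counterpart Cox6a1 was higher in replicate 2 with crocidolite, amosite and saline. The 7 measured muscle markers had centred medians of -0.19 in replicate 2 and 0.14 in replicate 1 with chrysotile, -0.07 and -0.14 with crocidolite, -0.17 and -0.01 with amosite and 0.14 and 0.24 with saline. Their part in the level of Cox6a2 was not tested. Cox6a2 lies at chr7:135349160-135349219 (mm9).

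**Figure D4:**
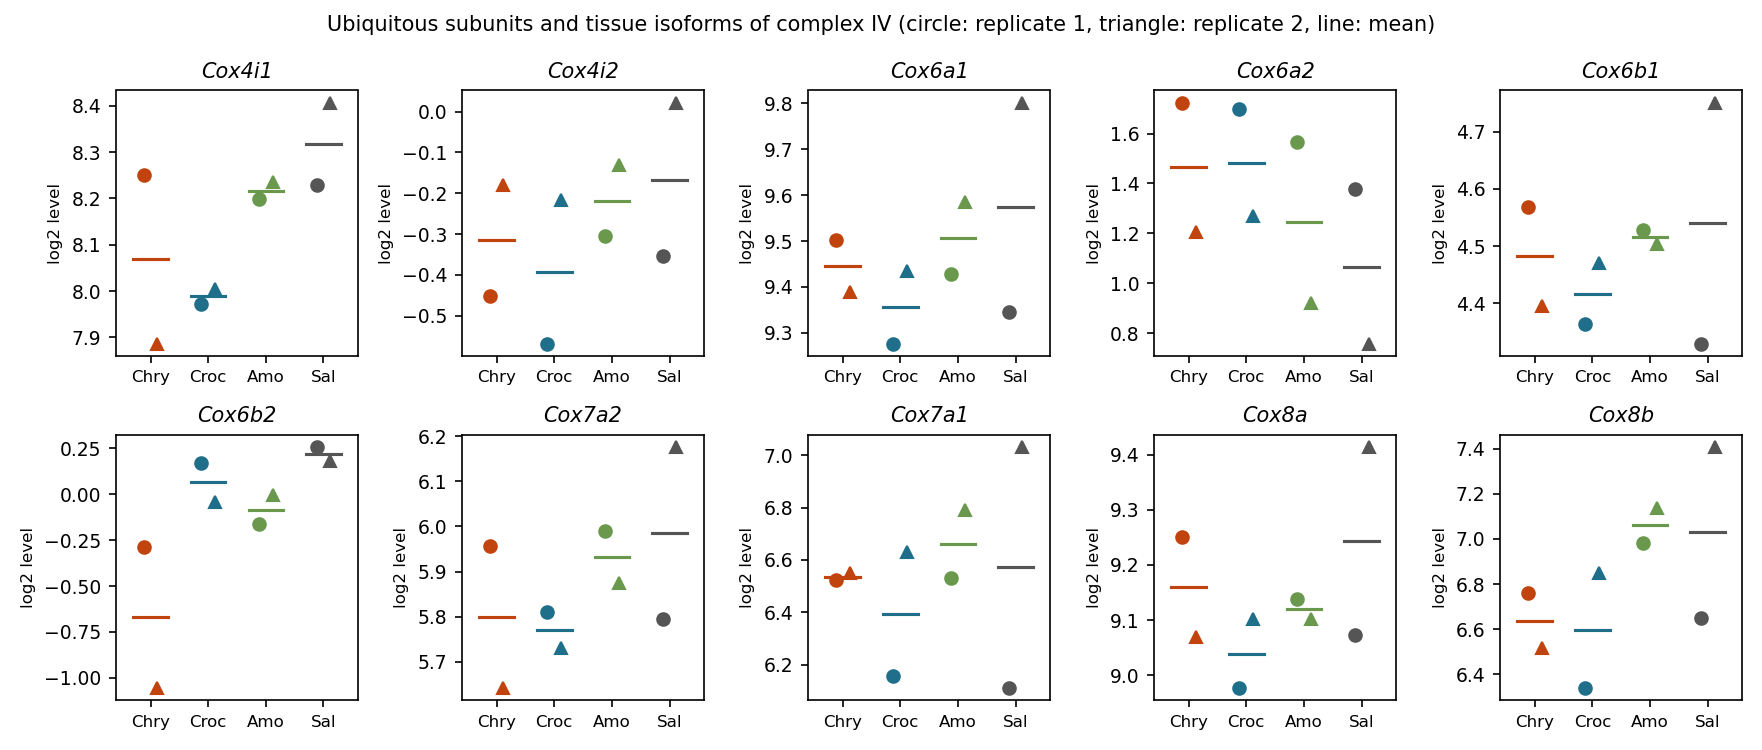
Log2 level of 5 ubiquitous subunits of complex IV and of tissue isoforms of the same subunits in the 4 groups (circles are replicate 1, triangles replicate 2, lines the means). Cox6a2 is lower in replicate 2 in every group, Cox6b2 is lowest with chrysotile, and Cox7a1 and Cox8b have their widest spread between the saline arrays.

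Complex V had medians of -0.19 with chrysotile, -0.23 with crocidolite and -0.08 with amosite over its 15 subunits. The 5 subunits of F1, the catalytic head, had medians of -0.28, -0.25 and -0.08, the 4 of the peripheral stalk -0.11, -0.15 and 0.01, and the 6 of the membrane part Fo -0.21, -0.22 and -0.14. Atp5a1, the alpha subunit of F1, was at 6.72 and 6.56 with chrysotile, 6.58 and 6.66 with crocidolite, 6.82 and 6.91 with amosite and 6.92 and 7.10 with saline. All 6 fibre arrays were under both saline arrays (-0.37 ± 0.12 with chrysotile, -0.39 ± 0.12 with crocidolite, -0.15 ± 0.12 with amosite). Atp5b, the catalytic beta subunit, was at 8.42 and 8.19, 8.21 and 8.37, and 8.38 and 8.50 with the fibres in that order and at 8.41 and 8.62 with saline, so that 1 chrysotile array and 1 amosite array reached the saline range. Atp5c1, the gamma shaft, and Atp5o, a stalk subunit, had the first saline array as their lowest (5.63 and 5.66). Of the 3 genes for the same membrane ring protein, Atp5g1 and Atp5g3 were lower on all 6 fibre arrays than on both saline arrays in the processed signal. Neither was once the scanner software's factor for place on the array, described below, was undone. Atp5g3 was then at 7.893 on the first saline array and at 8.005 on the first chrysotile array. Atp5g2 differed by 0.08 ± 0.16 with chrysotile and by -0.000761 ± 0.16 with crocidolite.

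Cox7a2l, 1 of the 4 genes in the name rule that encode no subunit and one that assembles respiratory supercomplexes, was at 6.97 and 6.72 with chrysotile, 6.92 and 6.73 with crocidolite, 6.97 and 6.68 with amosite and 6.74 and 6.94 with saline, and the fibre arrays overlapped saline. Cox4nb encodes a protein of the endoplasmic reticulum membrane complex, and Atp5s and Atp5sl are related genes that are no part of the ATP synthase core. The medians of the 4 genes were -0.06 with chrysotile, -0.05 with crocidolite and -0.03 with amosite.

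In 8 subunits both saline arrays were above all 6 fibre arrays, against 4.89% of all genes: Atp5a1, Atp5d, Atp5g1, Atp5g3, Cycs, Ndufa9, Ndufb4 and Ndufv3. The count was 6 with quantile normalization, 5 with cyclic loess and 4 with normexp on the unprocessed spot means. The share of all genes was not counted under these settings, so whether these counts exceed it cannot be told. Cycs, the mobile electron carrier that also triggers apoptosis once it leaves the mitochondrion, was at 6.91 and 6.65 with chrysotile, 6.87 and 6.78 with crocidolite, 6.96 and 6.89 with amosite and 7.23 and 7.22 with saline. Its differences were -0.45 ± 0.13 with chrysotile (unadjusted p = 0.012, adjusted p = 0.898 in limma), -0.40 ± 0.13 with crocidolite and -0.31 ± 0.13 with amosite. The scanner software divides each spot by a factor for its place on the array, and for this probe the factor was 0.625 on the first saline array and 0.925 to 0.985 on the others. With the factor undone, Cycs was at 6.58 and 7.14 with saline, and the differences were -0.13, -0.09 and 0.03. Of its other probes, the dimmer one also had a low factor on the first saline array (0.702) and gave -0.41, -0.28 and -0.27, against -0.18, -0.06 and -0.03 with the factor undone. The remaining Cycs probe, with a factor of 1.12 there, gave -0.19, -0.13 and -0.03, against -0.24, -0.18 and -0.06 undone.

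Ndufb4 and Ndufa9 had the next lowest factors on the first saline array (0.717 and 0.740), and no subunit had a factor under 0.75 on any other array. Over the whole array 2983 probes were under 0.75 on the first saline array and 0 on the other 7. Ndufb4 was at 6.93 and 7.03 with saline in the processed signal and at 6.48 and 6.95 with the factor undone, and Ndufa9 at 5.86 and 5.85 and at 5.44 and 5.66. A second probe of Ndufb4, whose factor there was 1.01, differed by -0.05 with chrysotile, -0.13 with crocidolite and -0.01 with amosite. With the factor undone 5 subunits were higher on both saline arrays than on all 6 fibre arrays, against 5.11% of all genes: Atp5a1, Atp5d, Cyc1, Ndufv3 and Sdhc. Atp5a1, Atp5d and Ndufv3 are in both sets of genes. Ndufv3, an accessory subunit of complex I, was at 8.18 and 8.05 with chrysotile, 8.16 and 8.24 with crocidolite, 8.11 and 8.09 with amosite and 8.40 and 8.38 with saline. Its saline arrays lay close together and above every fibre array, with differences of -0.28 ± 0.11, -0.19 ± 0.11 and -0.29 ± 0.11 (unadjusted p = 0.0355 in limma with amosite). The second probe of Ndufv3 gave -0.27 with chrysotile, -0.17 with crocidolite and -0.08 with amosite, the dimmest gave 0.11, -0.11 and 0.00, and the mean of all 3 differed by -0.12 with amosite. Atp5d, the delta subunit of F1, was at 6.05 and 5.67 with chrysotile, 5.95 and 5.79 with crocidolite, 6.10 and 6.07 with amosite and 6.17 and 6.14 with saline.

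**Figure D5:**
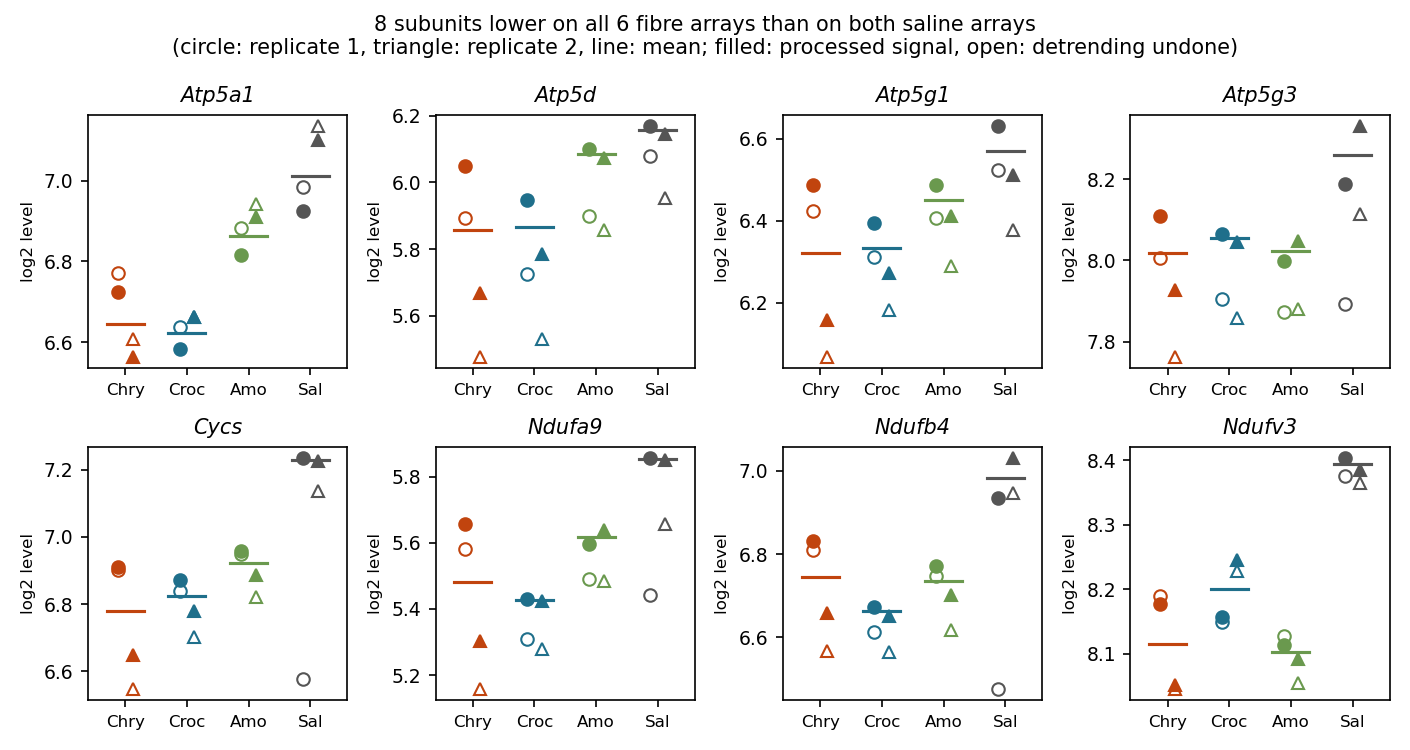
Log2 level of the 8 subunits that were lower on all 6 fibre arrays than on both saline arrays (circles are replicate 1, triangles replicate 2, lines the means of the filled symbols), with open symbols for the same arrays once the detrending factor of the scanner software is undone. For Cycs, Ndufa9 and Ndufb4 the open circle of saline lies far under the filled one, and for Atp5a1, Atp5d and Ndufv3 both saline arrays stay on top.

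With the factor undone the median difference of the 75 subunits was -0.18 with chrysotile, -0.22 with crocidolite and -0.07 with amosite, and the second saline array was the highest for 71. Within replicate 1, which holds the first saline array, the medians were 0.14 with chrysotile, -0.09 with crocidolite (50 subunits lower) and 0.09 with amosite (18 lower). For the counts of 71, 50 and 18 the share of all genes was not taken, so whether they differ from it cannot be told. The crocidolite to amosite median was -0.16, with 53 subunits apart, against 20.7% of all genes.

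Other genes of the pathway, outside the name rule, were set beside the subunits. The 13 subunits encoded in mitochondrial DNA had a median of -0.21 with chrysotile, -0.31 with crocidolite and -0.06 with amosite, and of -0.23 for crocidolite against amosite, where 10 did not overlap in the lower direction (20.3% of all genes). The mitochondrially encoded COX2, which takes electrons from cytochrome c, differed by -0.40 ± 0.12 with crocidolite (adjusted p = 0.613 in limma). The 18 genes of the citric acid cycle and pyruvate dehydrogenase had medians of -0.28, -0.25 and -0.04, and of -0.23 for crocidolite against amosite, with 15 genes apart in the lower direction, read against the same 20.3%. Of these, Pdha1, a subunit of pyruvate dehydrogenase, differed by -0.39 ± 0.13 with chrysotile. The 27 measured assembly factors had medians of -0.14, -0.10 and -0.03, and the 12 mitochondrial carriers and uncouplers of -0.02, 0.03 and -0.02. None of these genes passed the test in limma (0 called in each list). For comparison, the median of all genes was -0.01 with chrysotile and -0.02 with crocidolite and amosite.

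Regulators of mitochondrial genes, 13 measured, had medians of -0.12, -0.11 and -0.02 with chrysotile, crocidolite and amosite. Ppargc1a, which encodes PGC-1 alpha, was at 2.36 and 2.39 with chrysotile, 2.32 and 2.64 with crocidolite, 2.48 and 3.06 with amosite and 2.54 and 3.13 with saline. Esrra, which encodes ERR alpha, was at 4.79 and 4.67, 4.65 and 4.78, and 4.85 and 5.07 with the fibres in that order and at 4.81 and 5.16 with saline. For both genes the second saline array was the highest and the second amosite array the next. Over the 8 arrays Nrf1 lay between 0.36 and 0.65 and Gabpa between 1.44 and 1.66. Yy1 was lowest on the second saline array (1.79) and highest on the first crocidolite array (2.18), the reverse of Ppargc1a and Esrra.

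Adipocyte markers also moved with the arrays. Their centred median was -0.15 and 0.01 with chrysotile, -0.21 and 0.07 with crocidolite, -0.08 and 0.16 with amosite and -0.16 and 0.35 with saline, so replicate 2 was higher in each group and the second saline array was the highest. On the second chrysotile array the subunits were lowest while the adipocyte markers were not. The 13 measured preadipocyte or fibroblast markers had medians of 0.15 and 0.03, 0.20 and 0.02, and 0.02 and -0.16 with the fibres in that order and of 0.12 and -0.11 with saline. The 7 measured macrophage markers had medians of -0.04 and 0.16, 0.20 and 0.02, and -0.08 and -0.06, against -0.20 and 0.11. The part of these cell-state markers in the level of the subunits was not tested.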

How the data were processed

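Total RNA of 8 samples (4 groups, 2 arrays each) was hybridised in 1 colour to Agilent mouse arrays. Per the file headers, Feature Extraction 10.7.1.1 made the deposited intensity per spot (background subtracted, then divided by a multiplicative detrending ratio that the deposited files also give), not scaled between arrays. Submitters' processing notes name version 10.7. The deposited value table differs from the scanner files by 0.

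From the authors' deposited intensity, log2 values were centred on each array's 75th percentile. Control and outlier spots (99 to 183 per array) and 9 probes missing on an array were left out. Probes well above background on both arrays of a group were kept (33044), and the brightest stood for each gene. Groups were compared in 1 limma fit over all 8 arrays (limma 3.58.1, R 4.3.3; 4 residual degrees of freedom), and replicate 2 with replicate 1 in a fit that added the number, both with Benjamini-Hochberg adjustment over 22918 genes, two-sided, checked on simulated data. Same-numbered arrays deviated together over all genes (correlation 0.25 to 0.46 in all 6 pairs of groups), and limma was also run with that number as a block. The number is also the first slide position, so whether it pairs cultures cannot be told. The fit with the block called 0 members in every group comparison.

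Members, gene lists and tests were chosen with earlier results of these data known. Named members are those past the threshold or the 5 lowest p per comparison, a panel by role, and the extremes of each complex. Cyc1 and Sdhc, among the 5 subunits given with the detrending undone, and single subunits beside others, were named after their values were seen. One gene that the naming rule picked outside the members is not reported here. Of 87 symbols 82 matched the RefSeq gene table. Probe positions are mm9, promoters GRCm38.p6. Exon or untranslated region of a probe was not analysed here. Alternatives covered background, normalization, filter, probe choice, prior, single arrays and the detrending, which was chosen after seeing the data, as was the comparison of replicate values between normalizations.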

Additional observations from a re-analysis of the deposited data

Results flagged for a closer look

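The differences of chrysotile and amosite from saline had opposite directions in replicate 1 and replicate 2, and the difference between the replicates was not tested in either. The median difference of the 75 subunits between chrysotile and saline was 0.164 within replicate 1 and -0.464 within replicate 2. The median difference between amosite and saline was 0.139 within replicate 1 and -0.237 within replicate 2. Between the 2 saline arrays the median subunit difference, replicate 2 minus replicate 1, was 0.383, with 5 subunits lower in replicate 2 (10449 of all 22918 genes). Between the chrysotile arrays it was -0.219, with 75 lower (13400 of all 22918 genes). It was 0.060 between the crocidolite arrays and 0.010 between the amosite arrays. Over all genes it was 0.040 between the saline arrays and -0.057 between the chrysotile arrays. With quantile and with cyclic loess normalization the chrysotile median within replicate 1 was -0.002 and 0.003, and the amosite median within replicate 1 was 0.072 and 0.084. The opposite direction in chrysotile was thus lost with quantile normalization and all but lost with cyclic loess. With normexp and with the detrending undone the chrysotile median within replicate 1 stayed above these, at 0.158 and 0.139. These alternatives were set beside the replicate values after seeing the data.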

How the results depend on the processing

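The count of members called stayed at 0 in every group comparison under all alternatives run, the replicate block included (0 members called with the replicate block in each of the 6 comparisons), and the block changed no call. The median over the 85 members kept its sign with every other background correction, normalization, filter, probe rule, prior and detrending tried. Relative to saline it was -0.149 with chrysotile, and leaving out 1 array gave -0.348 (without saline replicate 1) to 0.052 (without saline replicate 2). With crocidolite it was -0.206, with -0.390 and -0.025 as the bounds, and with amosite -0.052, with -0.249 and 0.136, in each case without the first and without the second saline array. Crocidolite minus amosite was -0.16, with -0.188 to -0.121 for single arrays left out and -0.231 to -0.140 under other settings. For the test of replicate 2 against replicate 1, where 1 member was called, 0 were called with each array left out, with no filter on dim probes and over the ubiquitous subunits alone, and 2 with a trended and robust prior. Counts of subunits lower without overlap ranged from 13 to 38 with chrysotile, 32 to 46 with crocidolite, 5 to 9 with amosite, 18 to 68 for chrysotile against amosite and 49 to 62 for crocidolite against amosite. Shares of all genes moved too. With normexp they were 24.1% with chrysotile (13 subunits), 30% with crocidolite (33) and 19.1% with amosite (6). Chrysotile and amosite there lay under the share of all genes. With quantile normalization they were 15.9% (38), 17.9% (46) and 10.1% (6). For chrysotile against amosite they were 17.3% with normexp (18) and 18.7% with quantile normalization (68). For crocidolite against amosite they were 23.5% with normexp (49) and 18.8% with cyclic loess (62). Counts of 68 came with quantile and with cyclic loess normalization, under which chrysotile against amosite was lower than 0 within both replicates. With normexp on the unprocessed spot means, which also leaves out the detrending, Cycs differed by -0.097, -0.051 and 0.049 with chrysotile, crocidolite and amosite. With no filter on dim probes the median of all genes with crocidolite was -0.112, past 0.1 on the log2 scale. Precision is limited by 2 arrays per group, and no fit separates slide position from group.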
